A study of Mus musculus with 12 samples.

Results

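The 9 neuropeptide genes Sst, Vip, Npy, Cck, Crh, Tac2, Pdyn, Cort and Adcyap1 were examined in nuclei of the mouse cortex. They were chosen by symbol among the 55336 genes of the count matrices, and every one of the 9 was present and counted. Single-nucleus RNA-seq with combinatorial barcoding (Scale Biosciences) had been done on cortex at postnatal day 21 (P21) from 6 WT and 6 Het mice, each genotype with 3 males and 3 females. The strain is labelled MYT1L S710fsX: Het mice carry 1 copy of a frameshift allele of Myt1l, a zinc finger transcription factor of neurons, on a C57BL/6J background, and WT mice carry none. As the methods describe, all animals of both genotypes had received AAV9 carrying hyPB and H2b-tdT-SRT into the brain as newborns, so no animal here was uninjected. The animals came from 4 litters, each library is 1 animal, and the comparison asked how the loss of 1 Myt1l copy alters the juvenile cortex.

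Neuropeptide genes encode large precursors that are cut by convertases in dense-core vesicles into small peptides, which act mostly on G protein-coupled receptors of neighbouring cells. In the cortex many of them are the classical names of inhibitory interneuron types, with somatostatin and vasoactive intestinal peptide marking separate families of interneurons. Cholecystokinin and PACAP, in contrast, are also made by glutamatergic pyramidal neurons. Because a peptide gene can be abundant in a small group of cells, a little of its RNA released during dissociation can be captured with nuclei that never made it.

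Sequences are shown for the points where the members are related or share a promoter feature. Sst (somatostatin) and Cort (cortistatin) encode related peptides at the very ends of their coding sequences, and the last stretch of each is printed with capitals at the bases that are identical in both (GENCODE annotation, GRCm38; Sst at chr16:23889732-23889791 and Cort at chr4:149125270-149125329, both on the minus strand).
Sst coding end: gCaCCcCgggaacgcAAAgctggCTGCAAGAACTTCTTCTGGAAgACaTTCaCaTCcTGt
Cort coding end: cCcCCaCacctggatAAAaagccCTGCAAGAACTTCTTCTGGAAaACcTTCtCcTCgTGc
Of these 60 bases 38 (63.3%) were identical, and the longest shared run was 21 bases. For Cort the last 3 coding bases were left out so that the aligned stretches end together. A short motif of the promoter was also searched: TGACG, the core of the cAMP response element, on either strand. In the RefSeq windows from 250 bases before to 50 after each gene start (GRCm38.p6), it was found in 5 of the 8 members with a window, beside 6837 of all 32851 windows (20.8%). The pieces that hold it are given with the motif in capitals (read as CGTCA where it lies on the other strand, and as the whole palindrome TGACGTCA in Sst).
Sst (chr16:23890872-23890901, minus strand): ctccttggcTGACGTCAgagagagagttta
Vip (chr10:5639127-5639156, plus strand): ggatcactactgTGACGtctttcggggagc
Cck (chr9:121495724-121495753, minus strand): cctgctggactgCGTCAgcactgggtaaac
Cort (chr4:149126764-149126793, minus strand): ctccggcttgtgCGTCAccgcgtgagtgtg
Adcyap1 (chr17:93198914-93198943, plus strand): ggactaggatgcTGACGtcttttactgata
Counted from the start of the RefSeq window's transcript, the motif lay 45 bases away in Sst, 79 in Vip, 47 in Cck, 18 in Cort and 91 in Adcyap1. In Sst this distance is that of the CGTCA at the end of the palindrome. The RefSeq start of Sst lies inside the longer gene body that GENCODE gives, so its piece falls within the GENCODE gene. The whole palindrome TGACGTCA was present in Sst and in no other member, and in 1.79% of all windows. A letter match describes the sequence only, and Crh had no window. The gene bodies are scattered over the genome apart from Vip (5639218 to 5647617) and Tac2 (127724478 to 127731768), which lie far apart on chromosome 10 (GRCm38). Sst is on chromosome 16 (23889573 to 23890958), Npy on chromosome 6 (49822710 to 49829507) and Cck on chromosome 9 (121489824 to 121495694). Crh is on chromosome 3 (19693401 to 19695396), Pdyn on chromosome 2 (129686565 to 129699844), Cort on chromosome 4 (149125034 to 149126763) and Adcyap1 on chromosome 17 (93199017 to 93206537). No member overlaps another annotated gene, on either strand.

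After the study's limits on counts, genes and mitochondrial share, and removal of likely doublets, 33112 nuclei were retained of 78743 barcodes, 14343 from WT and 18769 from Het mice. No barcode was shared between libraries. Over the upper limit on counts were 33586 barcodes (42.7%), and 43095 barcodes were under the ratio limit, sets that overlap. The retained nuclei are the shallower ones, with medians of 2986 to 3397 counts per nucleus across animals. By genotype the medians were 3185 in WT and 3159 in Het mice. The files also hold fewer barcodes than the number of nuclei that the study states for this age. Clustering without the 9 members gave 21473 excitatory, 8506 inhibitory and 3133 non-neuronal nuclei. Besides cortical types, nuclei with markers of striatal projection neurons (725 D1-like and 697 D2-like) and of hippocampus (841 dentate gyrus-like and 824 CA1-ProS-like) were present, although the labels name cortex alone. Clusters without a clear marker set were left unnamed (5659 excitatory, 2907 inhibitory and 639 non-neuronal nuclei). Myt1l counts do not check the genotype, since a transcript of the frameshift allele can still be counted: its level was 833 to 955 CPM (counts scaled to an equal library total) in WT and 927 to 1023 CPM in Het animals (log2 fold change 0.13 ± 0.05 SE, adjusted p = 0.650, edgeR).

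The 9 genes were sparsely counted. Over all retained nuclei their counts ran from 68 for Tac2 and 80.4 for Crh through 188.8 for Sst and 803.3 for Cck to 1713 for Vip. The genes span from 1386 bases (Sst) to 13280 bases (Pdyn) and these values are not scaled to length, so levels are compared between cell classes for each gene and not between genes. Of all retained nuclei 2443 (7.38%) held a count of any member, namely 16.0% of inhibitory, 4.79% of excitatory and 1.85% of non-neuronal nuclei. The non-neuronal group also holds unnamed clusters in which the neuronal genes Snap25, Syt1 and Rbfox3 together reached 0.435 to 1.006 of their median in neuronal clusters. Counts of 2 or more members in the same nucleus were seen in 163 nuclei, of which 147 were inhibitory.

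Vip encodes vasoactive intestinal peptide, which marks interneurons that mainly inhibit other interneurons. Its counts were concentrated more than those of any other member: 86.6% (exact 95% interval 84.9 to 88.2) lay in the 625 Vip-like nuclei, which are 1.89% of all nuclei and were named from markers other than Vip itself. The level there was 743 CPM (95% Poisson interval 705 to 781) and, across the 12 animals, 570 CPM at the lowest, 740 at the median and 867 at the highest. Sncg-like nuclei, a neighbouring class of cholecystokinin basket interneurons, followed at 71.4 CPM (54.2 to 92.3), a level that varied strongly between animals (mean 79.4 ± 62.9 SD). The ranges of these classes stand far apart, and Lamp5-like nuclei lay lower again at 2.95 CPM.

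The Vip-like class also held the highest pooled levels of Crh and Tac2 among the named classes, at much lower counts than Vip. Crh encodes corticotropin-releasing hormone, the peptide that starts the pituitary stress response and that cortical interneurons also make. Its level in Vip-like nuclei was 24.0 CPM (17.7 to 31.9) from 48 counts, or 59.7% of all its counts, and animals ranged from 0 through a median of 24.7 to 40.3 CPM. Tac2 encodes neurokinin B, a tachykinin. It was counted at 14.8 CPM (9.93 to 21.2; 29.5 counts) in Vip-like nuclei and at 7.38 CPM in Sncg-like nuclei. Only 6 counts were found in Sncg-like nuclei, so the order of these 2 classes is not settled at this depth. A cluster of 147 nuclei within the striatal D2-like class held Tac2 at 9.10 CPM (5 counts). An unnamed inhibitory cluster of 119 nuclei that scored highest for Vip-class markers held both genes at similar levels, 23.6 CPM of Crh (9 counts) and 13.1 CPM of Tac2 (5 counts). Vip itself was only 23.6 CPM (9 counts) in that cluster.

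Sst and Cort, the gene pair whose coding ends are printed above, were both inhibitory, but their distributions differed. Sst encodes somatostatin, which inhibits release from nerve endings and marks interneurons that target dendrites. Of its counts 43.9% lay in Sst-like nuclei, at 24.6 CPM (19.6 to 30.5). The 64 Sst Chodl-like nuclei, a rare long-range type marked by Chodl and Nos1, held Sst at 76.4 CPM (45.3 to 121) from 18 counts, above the interval of Sst-like nuclei. Across animals Sst in Sst-like nuclei was spread from 5.20 CPM through a median of 20.5 to 54.5 CPM, a wide range, from 83 counts over all 12 animals. A further 22.5% of Sst counts lay in unnamed inhibitory nuclei, where clusters reached 15.4 CPM. Cort encodes cortistatin, which binds somatostatin receptors. Its level in Sst-like nuclei was 6.53 CPM (4.09 to 9.89), and in Pvalb-like nuclei, the fast-spiking basket and chandelier cells, it was 6.37 CPM (4.41 to 8.90), so that the classes did not differ beyond their error for Cort.

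Npy encodes neuropeptide Y, an abundant peptide of the cortex that acts on Y receptors and generally dampens release. It was the member most widely shared among interneuron classes. Sst Chodl-like nuclei had 212 CPM (158 to 280), from 50 counts, and only 2 animals had enough of these nuclei for a value of their own. Lamp5-like nuclei, which include neurogliaform cells, had 85.5 CPM (75.4 to 96.5), with animals between 42.4 and 138 CPM and a median of 84.2. Sst-like nuclei followed at 32.7 CPM, Sncg-like nuclei at 19.7, Vip-like nuclei at 8.01 and Pvalb-like nuclei at 6.55 CPM. The Lamp5-like class, with 2.59% of nuclei, contributed 44.1% of all Npy counts and the Sst-like class 18.6%. Sst Chodl-like nuclei contributed 8.45% although they were 0.193% of all nuclei.

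Pdyn encodes prodynorphin, the precursor of opioid peptides that act on the kappa receptor, and is known in the striatum as a gene of D1 projection neurons. Its counts were inhibitory (89.4%) but lay mainly outside cortical interneurons. Striatal D1-like nuclei, which are 2.19% of all nuclei, held 106 of the 212.2 Pdyn counts at 46.5 CPM (38.1 to 56.2), and animals ranged from 9.39 through 39.2 to 88.8 CPM. Sst-like nuclei were lower at 10.5 CPM (7.36 to 14.6), and striatal D2-like nuclei stood at 4.44 CPM from 10 counts (2.62 CPM without Het female 1, which gave 5 of them). An unnamed inhibitory cluster of 331 nuclei led by Foxp2, Meis2 and Chst9 had 16.9 CPM. The striatal classes thus held more Pdyn counts than all named cortical interneuron classes together.

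Cck and Adcyap1 were the excitatory members. Cck encodes cholecystokinin, a peptide of pyramidal neurons and of a class of basket interneurons. Of its counts 88.1% were in excitatory nuclei, at 19.9 CPM (17.2 to 23.0) in L2/3 IT-like and 19.1 CPM (15.8 to 22.9) in L6 IT-like nuclei, intratelencephalic neurons that project within the telencephalon. These did not differ beyond their counting error. Both pooled levels lay above that of L4/5 IT-like nuclei, 12.5 CPM (10.3 to 14.9), by intervals that leave out the spread between animals. Single animals ran from 3.48 to 31.2 CPM in L2/3 IT-like and from 11.3 to 29.9 CPM in L6 IT-like nuclei. Car3 claustrum-like nuclei had 14.8 CPM (8.43 to 24.0; 16 counts), CA1-ProS-like 11.9, L6b-like 7.74, L5 NP-like (near-projecting) 6.33 and L6 CT-like (corticothalamic) nuclei 2.80 CPM. The L5 NP-like class joined clusters that differed in Cck, with 14.0 CPM in 520 nuclei and 1.98 CPM in 852. So did the L6b-like class, with 5.82 CPM in 526 nuclei and 14.99 CPM (7 counts) in 147. The smaller of these L6b-like clusters scored 1.21 for L6b markers and 1.16 for L5 NP markers. The highest pooled Cck value of any named class was that of Sncg-like interneurons, 24.6 CPM (15.03 to 38.01), from 20 counts and with an interval that includes the L2/3 IT-like and L6 IT-like levels. Of these counts 9 came from WT female 3, and without that animal the Sncg-like level was 14.9 CPM (7.45 to 26.7), below both IT-like levels. In the retained nuclei the rank of this class thus rests on 1 animal. A wider setting dropped the upper limits on counts and genes, the ratio limit and the doublet removal. Sncg-like nuclei then had 32.9 ± 10.98 CPM (SD) in WT (78 counts) and 33.55 ± 8.61 CPM in Het mice (87 counts). The means were then 14.1 and 18.3 CPM in L2/3 IT-like and 15.9 and 20.5 CPM in L6 IT-like nuclei. Adcyap1 encodes PACAP, a relative of VIP that shares its receptors. Its counts were 91.0% excitatory, but 45.4% lay in unnamed excitatory nuclei, and the named class with the most counts, L4/5 IT-like, reached only 4.01 CPM (2.84 to 5.51). Unnamed excitatory clusters went higher: 16.8 CPM (16 counts) in 277 nuclei led by Ier5, Irf2bpl, Irs2, Pou3f1 and Jun, which include genes induced by activity or stress, and 8.05 CPM (29 counts) in 1120 nuclei led by Rorb and Cpne9.

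**Figure D1:**
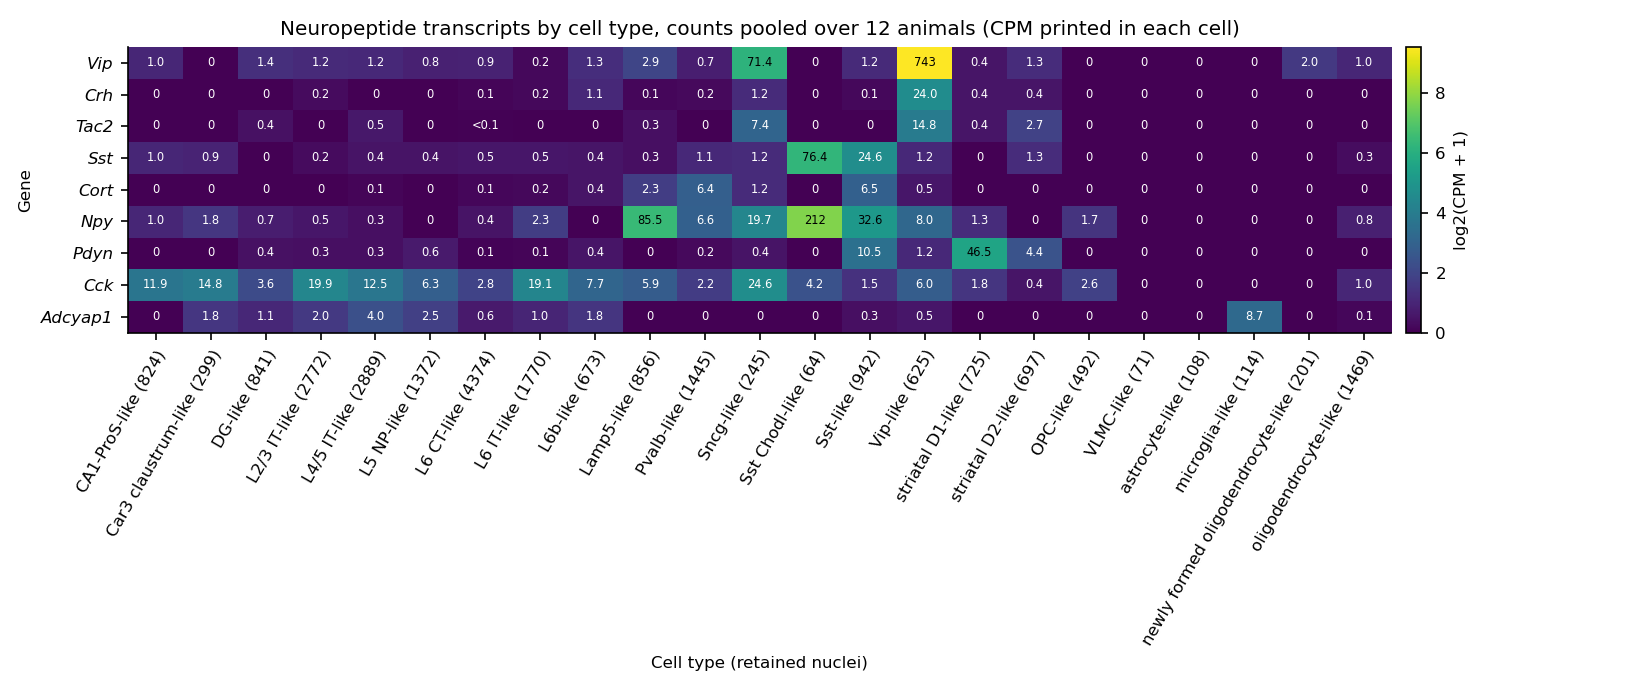
Heat map of the pooled level of each member (rows) in 23 named cell classes (columns, with their number of nuclei; the 39 choroid- or ependymal-like nuclei are left out), coloured by log2(CPM + 1) and printed as CPM in each cell. Vip stands out at 743 CPM in Vip-like nuclei, Npy spreads over the Sst Chodl-like, Lamp5-like and Sst-like columns, Pdyn peaks in striatal D1-like nuclei, and Cck is the member with values in every excitatory column.

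The share of nuclei with at least 1 count was set beside oligodendrocyte-like nuclei, which should lack these peptides. Vip was counted in 77.6% (exact 95% interval 74.1 to 80.8) of the 625 Vip-like nuclei, whose median depth was 3123 counts, and in 0.272% of the 1469 oligodendrocyte-like nuclei, whose median depth was 2486 counts. With every nucleus thinned to 1500 counts, at which no nucleus was too shallow, the shares were 60.2% and 0.136%. Among the 485 Vip-like nuclei with a Vip count, 27.0% held a single count and the highest held 16. Vip was thus the only member that marked most nuclei of a named class.

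The other members were missed in most nuclei of their own leading class. Npy was counted in 42.2% of Sst Chodl-like and 22.1% of Lamp5-like nuclei (26.6% and 11.9% after thinning), against 0.204% of oligodendrocyte-like nuclei. Sst was counted in 25.0% of Sst Chodl-like but in 7.96% of Sst-like nuclei (14.1% and 3.82% after thinning), against 0.0681%. Pdyn was counted in 11.7% of striatal D1-like nuclei (5.38% after thinning), and in 0 of the oligodendrocyte-like nuclei, which by the limit of 3 counts allows up to 0.204%. The values of the remaining members were below 7%: 6.72% of Vip-like nuclei held Crh, 4.32% held Tac2, 6.28% of L2/3 IT-like and 6.38% of L6 IT-like nuclei held Cck, 2.02% of Sst-like and 2.01% of Pvalb-like nuclei held Cort, and 1.28% of L4/5 IT-like nuclei held Adcyap1. Oligodendrocyte-like nuclei held Cck in 0.272%, and none held a whole count of Crh, Tac2, Cort or Adcyap1. Positive nuclei mostly carried 1 count, namely 94.2% of Cck-positive L2/3 IT-like and 89.3% of Sst-positive Sst-like nuclei, compared with 73.5% of Npy-positive Lamp5-like nuclei. A nucleus without a count of these genes is therefore not shown to lack the transcript. The intervals and limits cover counting error only.

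**Figure D2:**
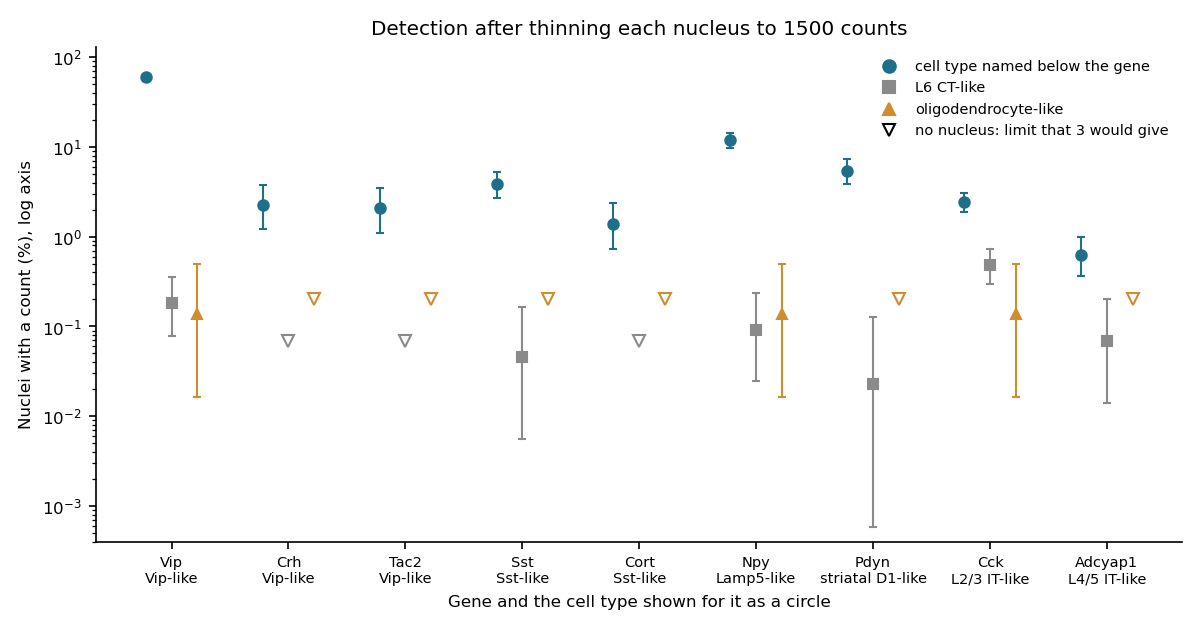
Share of nuclei with at least 1 count of each member (log axis, percent) in the class printed under it (circles), in L6 CT-like nuclei (squares) and in oligodendrocyte-like nuclei (triangles), after thinning to 1500 counts; bars are exact 95% intervals and open triangles the limit for 0 nuclei. Vip in Vip-like nuclei reaches 60.2%, and the other members lie between 0.623% (Adcyap1) and 11.9% (Npy) in the classes shown.

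Joint detection of members was examined nucleus by nucleus. In Vip-like nuclei Crh was counted in 34 of 485 nuclei with Vip (7.01%) and in 8 of 140 without (5.71%), and Tac2 in 4.74% and 2.86%; after thinning, Crh was in 11 of 376 (2.93%) and 3 of 249 (1.20%). Crh and Tac2 were counted together in 3 Vip-like nuclei. In Sst-like nuclei Npy was counted in 14 of 75 nuclei with Sst (18.7%, exact 95% interval 10.6 to 29.3) and in 71 of 867 without Sst (8.19%). After thinning the pair was found together in 0 of 36 nuclei with Sst, which allows up to 9.74% (exact 95% interval), beside 40 of 906 without (4.42%), so whether the joint detection persists at equal depth was not detectable. Among excitatory nuclei, Adcyap1 was counted in 0.888% of those with Cck and 0.808% of those without. These are descriptions of sparse counts, in which deeper nuclei hold more of every gene.

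The spread of member RNA into cells that should lack it was read from oligodendrocyte-, microglia- and astrocyte-like nuclei together, 1691 nuclei. Their Vip level was 5.72% of the level over all nuclei (95% interval 1.56 to 14.7; 4 counts). For reference genes of neurons the same ratio was 6.23% for Gad1 (4.01 to 9.24) and 6.02% for Gad2 (4.05 to 8.61), the enzymes that make GABA, 13.1% for Slc32a1 (4.26 to 30.7), the vesicular GABA transporter, and 6.81% for Slc17a7 (4.54 to 9.82), the vesicular glutamate transporter. Of the pooled counts, 11 of 24.3 for Gad1 and 17 of 29.6 for Gad2 came from the 114 microglia-like nuclei, at 36.3% and 44.6%, where Vip had 0 counts. In oligodendrocyte-like nuclei alone the ratio was 6.63% for Vip (1.81 to 17.0), above the intervals of Gad1 (3.51%, 1.80 to 6.16) and Gad2 (2.49%, 1.23 to 4.51) although its own interval includes their values. Slc17a7 had 6.51% (4.15 to 9.73) there. Npy stood at 12.4% (2.56 to 36.3; 3 counts), Cck at 12.2% (3.32 to 31.2; 4 counts) and Sst at 12.98% (0.329 to 72.3; 1 count), with intervals that include the reference values. Crh, Tac2, Pdyn and Cort had 0 counts there, but their low totals set upper bounds (of the two-sided 95% interval) between 42.6% for Pdyn and 133% for Tac2, so a share like that of Gad1 was not detectable. Adcyap1 had 41.9% (10.1 to 114), from 3.5 counts of which 3 were in the 114 microglia-like nuclei (8.68 CPM).

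**Figure D3:**
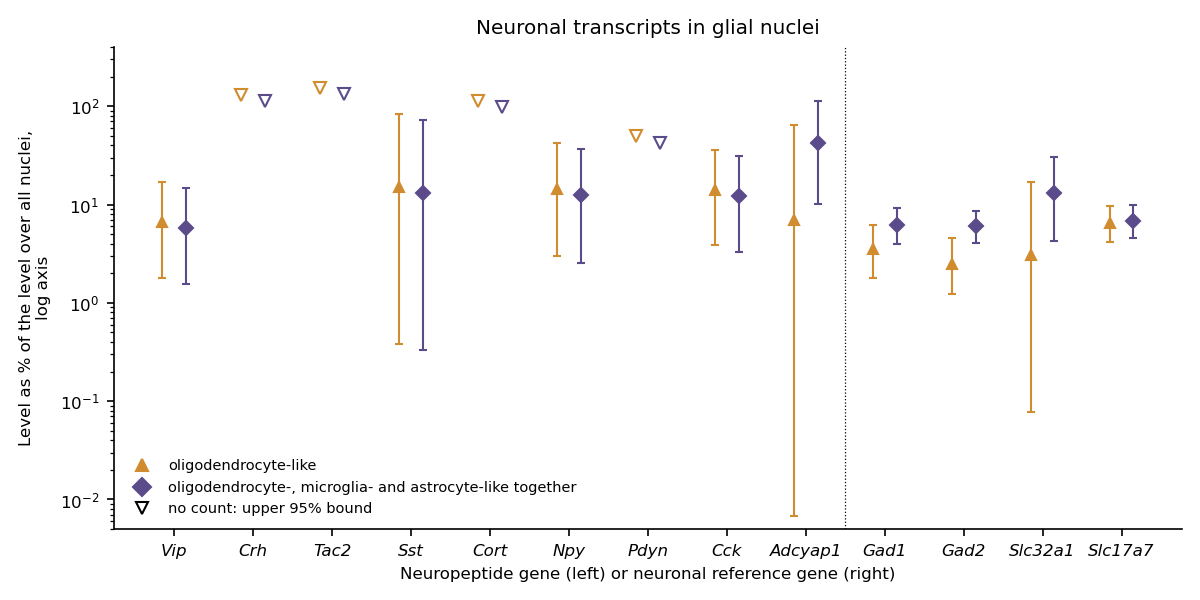
Level of each member and of 4 neuronal reference genes as a percent of the level over all nuclei (log axis), in oligodendrocyte-like nuclei (triangles) and in oligodendrocyte-, microglia- and astrocyte-like nuclei together (diamonds), with 95% intervals from the counts. Vip lies beside Gad1, Gad2 and Slc17a7 as a diamond (5.72%) and above Gad1 and Gad2 as a triangle (6.63%), and members with 0 counts are drawn as upper bounds only.

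A small amount of Vip also lay in nuclei placed in the non-neuronal group that were not glia-like by name. Of all Vip counts 3.39% lay in the non-neuronal group, and its unnamed nuclei had 24.8 CPM (52 counts). Of these counts 38 came from 1 cluster of 45 nuclei at 233 CPM. Its leading genes included Galntl6, Vip, Reln, Igf1 and Inpp5d, a mixture of interneuron genes with the microglial gene Inpp5d. A further 12 counts came from a cluster of 33 nuclei at 154 CPM, whose leading genes included Nxph1, Kcnmb2, Calb2 and Gad2. In these 2 clusters Snap25, Syt1 and Rbfox3 together stood at 0.664 and 0.435 of their median in neuronal clusters. These nuclei were kept out of all named classes. Astrocyte-like and VLMC-like (leptomeningeal fibroblast) nuclei held no count of any member, and 12 oligodendrocyte-like nuclei (0.817%) held one.

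The genes with the pattern most like each member were found over the 23 named classes by Pearson's r of log levels, among genes that reach 50 CPM in some class. For Vip they were Grpr (0.921), Gm31706 (0.862) and Chat (0.806), and for Crh Chat (0.954), Grpr (0.947) and Gm31706 (0.944), so that these members shared their neighbours. Chat makes acetylcholine and Grpr is a receptor of gastrin-releasing peptide. Tac2 was closest to Vip itself (0.976), then Grpr (0.872) and Gm31706 (0.812). For Sst they were Pcdh18 (0.938), Chodl (0.916) and Dnttip1 (0.872), and for Pdyn the D1 neuron genes Isl1 (0.875), Tac1 (0.796) and Drd3 (0.789). Npy was closest to Gm37140 (0.828), B020031H02Rik (0.815) and Gm38505 (0.812), Cck to 2900064K03Rik (0.833), Gm43317 (0.831) and Nwd2 (0.821), and Cort to Gm31218 (0.909), Mageb18 (0.795) and Las1l (0.795). The neighbours of Adcyap1, namely Tnfrsf11a (0.902), Trim14 (0.869) and Naip5 (0.863), rest on its 3 counts in microglia-like nuclei. The classes of 1 correlation share the same libraries and differ in size and depth, and Isl1, Tac1, Chat and Chodl were themselves used to name classes.

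Counts were then summed per animal and Het was compared with WT. In these sums, fewer nuclei of a type and less RNA per nucleus cannot be told apart. Over all retained nuclei 6 of the 9 members had enough counts to be tested, with a median log2 fold change of -0.08 beside -0.003 over all 16549 genes, and 0 of the 6 were called at an adjusted p below 0.05 (edgeR's quasi-likelihood test) with a log2 change beyond 0.2. The percentage of all genes called was 0.0 in all retained nuclei (0 of 16549, with 1042 at an unadjusted p below 0.05 and 41 calls by DESeq2), 0.149 in excitatory and 0.298 in inhibitory nuclei. By class it was 0.0144 in L2/3 IT-like, 0.126 in L4/5 IT-like, 0.0786 in Lamp5-like and 0.0782 in Vip-like nuclei. No member was called in any of these 7 sums by edgeR or by DESeq2, and an unadjusted p below 0.05 was reached once in all nuclei (Pdyn), once in inhibitory nuclei (Pdyn) and once in L2/3 IT-like nuclei (Cck). Crh, Tac2 and Cort were too sparse for this test in every class with the limits on counts applied.

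Pdyn had the largest difference of the tested members. Summed over inhibitory nuclei, the WT animals lay at 3.35 CPM at the lowest, 3.95 at the median and 5.26 at the highest, and the Het animals at 5.36, 7.37 and 12.8 CPM. All Het animals were thus above all WT animals, by a narrow margin between WT male 1 and Het male 1. How many other genes separated the animals in this way was not counted. Without the upper limits on counts and genes, a setting that also drops the ratio limit and doublet removal, the ranges overlapped. They were 4.01 to 6.04 CPM in WT and 5.67 to 11.7 CPM in Het animals. The log2 fold change in that setting was 0.79 ± 0.16 SE, with an adjusted p of 0.0604 in edgeR, which also misses the threshold. With the limits applied, the log2 fold change was 1.03 ± 0.24 SE, and the adjusted p of edgeR was 0.0626, which misses the threshold. In this sum 774 of 11406 genes had an unadjusted p below 0.05 (edgeR). Over all retained nuclei the WT animals had 0.932 to 2.46 CPM (median 1.24) and the Het animals 1.68 to 3.43 CPM (median 2.17), with a log2 fold change of 0.76 ± 0.25 SE and an adjusted p of 0.508.

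**Figure D4:**
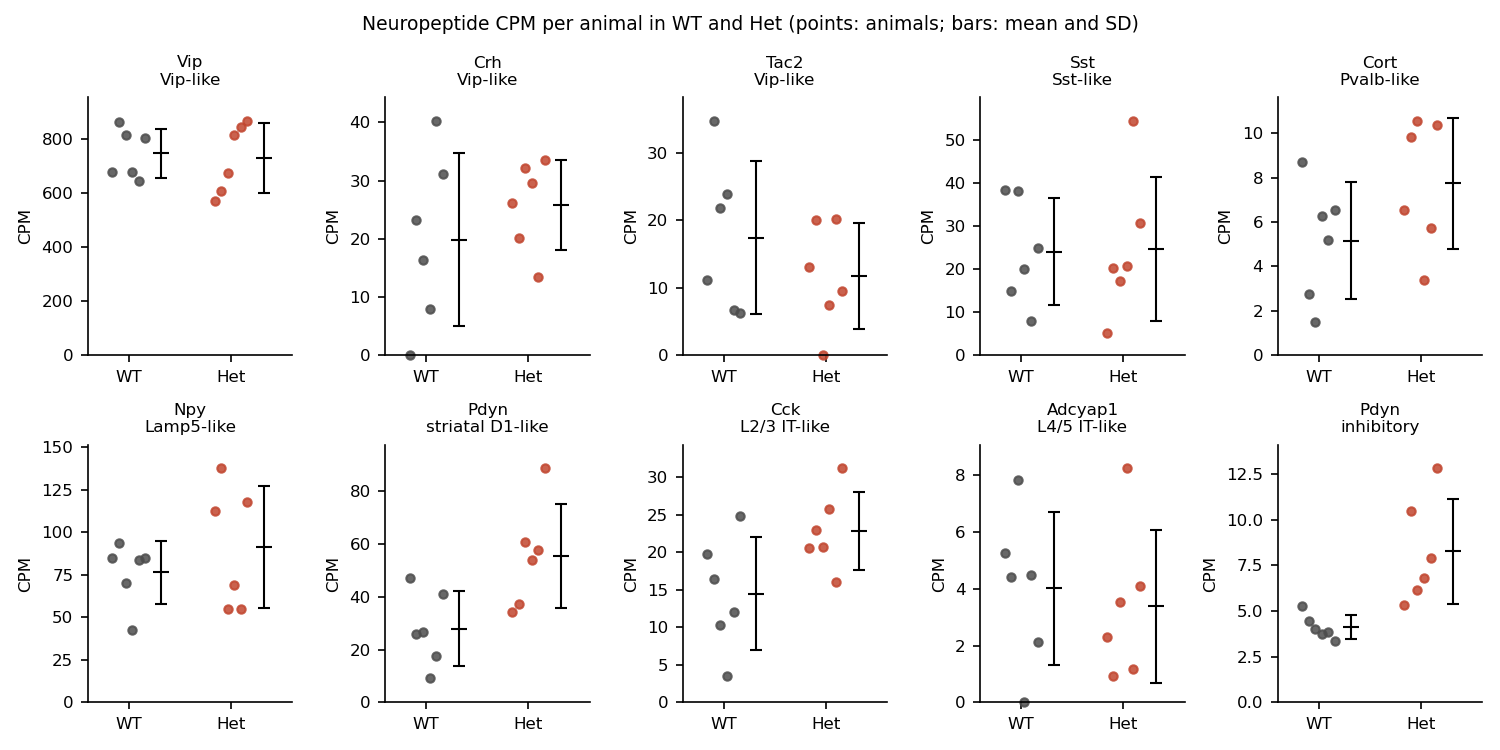
Member levels per animal (CPM) in WT and Het mice, for each member in the class named above its panel and for Pdyn also in all inhibitory nuclei; points are animals, and bars give the mean and SD. Pdyn in inhibitory nuclei is the panel where the Het points (5.36 to 12.8 CPM) lie above all WT points (3.35 to 5.26 CPM), with the limits on counts applied. Without the upper limits the ranges overlap, and how many other genes separate the animals in this way was not counted. The points of Vip and Npy overlap.

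Striatal nuclei were also more numerous in Het mice, and whether the Pdyn sum followed their number across animals was not tested. Striatal D1- and D2-like nuclei together were 444 in WT and 978 in Het mice, and their share of inhibitory nuclei was 12.7% ± 3.53 (SD, n = 6; 8.90, 11.5 and 18.4 at the lowest, median and highest animal) in WT and 19.8% ± 3.63 (13.6, 20.7 and 23.4) in Het mice (two-sided exact permutation test, p = 0.0130, not adjusted, for a joint share chosen after seeing the data). Taken singly as shares of inhibitory nuclei, D1-like and D2-like nuclei did not pass (exact permutation adjusted p = 0.110 and 0.0693). Inside these striatal nuclei Pdyn was 5.48 to 23.7 CPM in WT (median 13.9; 20 counts) and 16.2 to 46.5 CPM in Het animals (median 29.6; 96 counts), groups that overlap in their ranges (exact permutation p = 0.0108). In D1-like nuclei alone the WT animals had 9.39, 26.3 and 47.2 CPM (19 counts) and the Het animals 34.4, 55.9 and 88.8 CPM (87 counts; exact permutation p = 0.0173). Without the upper limits on counts and genes, the D1-like means were 42.8 ± 15.8 CPM in WT and 59.9 ± 11.4 CPM in Het mice, with p = 0.0606 by the exact permutation test. In edgeR, whose filter Pdyn passed in this class only without those limits, the log2 fold change was 0.60 ± 0.20 SE, with an unadjusted p of 0.00584 and an adjusted p of 0.463.

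In inhibitory nuclei without those named D1- or D2-like, Pdyn did not separate the genotypes: 1.38 to 3.59 CPM in WT (median 3.03; 30 counts) and 1.14 to 6.51 CPM in Het animals (median 3.05; 43.7 counts; exact permutation p = 0.738). These nuclei still included the unnamed cluster led by Foxp2, Meis2 and Chst9, which scored highest for markers of striatal projection neurons and held 17.5 of the Pdyn counts. In Sst-like nuclei, the leading named cortical source, the Het mean was 0.101 CPM below the WT mean (exact permutation p = 0.978). Without the upper limits on counts and genes the direction turned, with 12.6 ± 4.04 CPM in WT and 16.6 ± 4.97 CPM in Het mice (exact permutation p = 0.154). These Pdyn comparisons without striatal nuclei and within them were added after the data had been seen, and their p-values are not adjusted. The D1-like and Sst-like values are 2 of 16 member and class pairs compared by the exact test. The share of striatal nuclei can also depend on how the cortex was dissected, and the part of dissection in the Pdyn difference was not tested. The paper itself reported a higher proportion of striatal DARPP32-positive inhibitory neurons in Het mice from its single-nucleus data, at this age among others. It regards striatal contamination as unlikely, and by immunofluorescence it counted more neurons stained for both DARPP32 and NeuN in Het cortex.

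**Figure D5:**
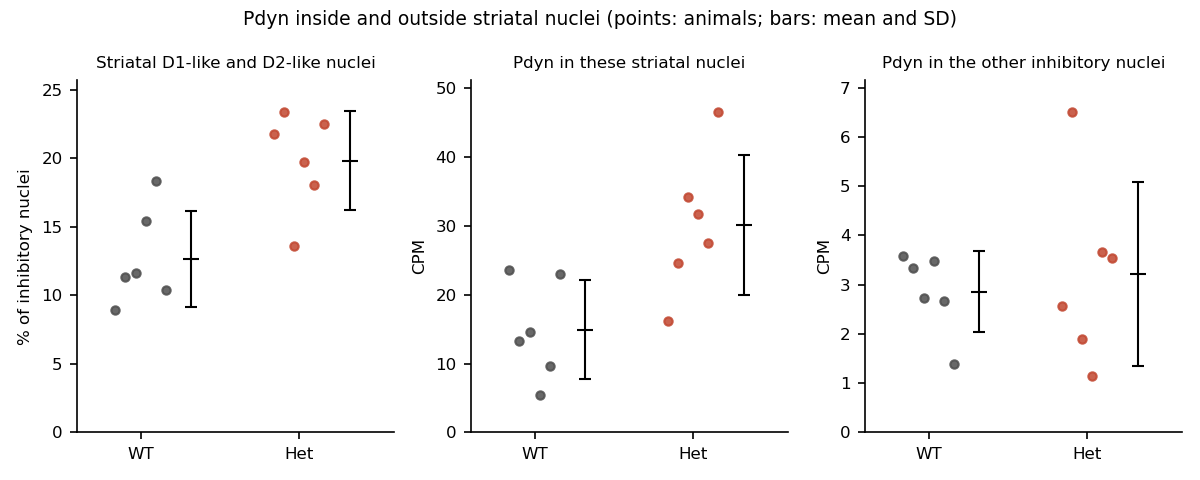
Left, share of inhibitory nuclei that were striatal D1- or D2-like in each animal; middle and right, Pdyn level (CPM) in those striatal nuclei and in the other inhibitory nuclei, with WT and Het animals as points and bars at the mean with SD. The shares (12.7% and 19.8%) and the striatal Pdyn levels are higher on average in Het animals, and the levels in other inhibitory nuclei overlap.

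Vip, the best counted member, did not differ between the genotypes beyond the spread of the animals. Vip-like nuclei had 747 ± 91.1 CPM in WT and 729 ± 128 CPM in Het mice (SD, n = 6 each), a log2 fold change of -0.07 ± 0.12 SE (adjusted p = 0.978, edgeR). Npy in Lamp5-like nuclei was 76.6 ± 18.4 CPM in WT and 91.2 ± 35.9 CPM in Het mice (log2 fold change 0.21 ± 0.22 SE, adjusted p = 0.925), and in all inhibitory nuclei its log2 fold change was -0.13 (adjusted p = 0.993). Sst in Sst-like nuclei was 24.1 ± 12.4 CPM in WT and 24.8 ± 16.7 CPM in Het mice. Without the upper limits on counts and genes the log2 fold change was 0.01 for Npy in Lamp5-like and -0.12 for Vip in Vip-like nuclei, and Sst in Sst-like nuclei was 25.7 ± 6.70 CPM in WT and 32.4 ± 11.4 CPM in Het mice. None of these differences passed its test, with or without those limits.

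Cck was compared in its excitatory classes. In L2/3 IT-like nuclei the WT animals had 3.48, 14.2 and 24.8 CPM at the lowest, median and highest, and the Het animals 16.0, 21.8 and 31.2 CPM, overlapping groups with a log2 fold change of 0.52 ± 0.25 SE (adjusted p = 0.604, edgeR). In L4/5 IT-like nuclei the log2 fold change was 0.03 (adjusted p = 0.998), and in all excitatory nuclei it was 0.05 (adjusted p = 0.978). L6 IT-like nuclei, too sparse for edgeR's filter, had 19.9 ± 7.72 CPM in WT and 18.9 ± 2.89 CPM in Het mice (exact permutation p = 0.784). The exact permutation p of L2/3 IT-like nuclei was 0.0476. Without the upper limits it was 0.0195 there and 0.0411 in L6 IT-like nuclei. These exact p-values are not adjusted for the 16 member and class pairs compared. Without the upper limits on counts and genes the log2 fold change of Cck was larger in all excitatory nuclei (0.26) and smaller in L2/3 IT-like nuclei (0.40). It was then 0.35 in L6 IT-like, 0.75 in L6 CT-like and 0.75 in CA1-ProS-like nuclei, and each of these 5 values had an unadjusted p below 0.05 and an adjusted p of 0.184 to 0.712 (edgeR). In L4/5 IT-like nuclei it was 0.14 and in L6b-like nuclei -0.05. No Cck difference passed adjustment with or without those limits, but its size changed in that setting, which also drops the ratio limit and doublet removal. Adcyap1 in excitatory nuclei had a log2 fold change of 0.18 (adjusted p = 0.924), and of -0.003 without the upper limits. Of the sparse members, Crh in Vip-like nuclei was 19.8 ± 14.8 CPM in WT and 25.9 ± 7.73 CPM in Het mice, Tac2 there was 17.4 ± 11.3 and 11.7 ± 7.81 CPM, and Cort was 5.17 ± 2.65 and 7.75 ± 2.96 CPM in Pvalb-like and 5.11 ± 3.83 and 7.36 ± 3.34 CPM in Sst-like nuclei. Each of these pairs differed by less than the SD of its WT animals.

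The numbers of nuclei of the peptide classes were compared as shares of all retained nuclei, over 11 classes. Sst-like nuclei were 3.24% ± 0.375 in WT and 2.54% ± 0.236 in Het mice (exact permutation p = 0.00433, adjusted p = 0.0238). This share covers named clusters only. It leaves out, for example, an unnamed cluster of 244 nuclei that scored highest for Sst-class markers and held Sst at 15.4 CPM, whose share was not tested. Striatal D2-like nuclei were 1.52% ± 0.415 in WT and 2.58% ± 0.441 in Het mice (exact permutation p = 0.00433, adjusted p = 0.0238), and D1-like nuclei 1.70% ± 0.652 and 2.57% ± 0.440 (exact permutation adjusted p = 0.103). Vip-like (1.92% and 1.91%) and Lamp5-like nuclei (2.50% and 2.62%) had similar shares, with exact permutation adjusted p of 0.950 and 0.749. As shares of inhibitory nuclei 0 of 8 classes passed: Sst-like nuclei were 12.96% ± 2.10 in WT and 9.77% ± 1.56 in Het mice (exact permutation adjusted p = 0.0779), and D2-like nuclei 6.02% ± 1.47 and 9.92% ± 2.04 (exact permutation adjusted p = 0.0693), in the same directions as before. Without the upper limits on counts and genes both calls were lost as well: Sst-like nuclei were 2.44% and 2.22% (exact permutation adjusted p = 0.393), and D2-like nuclei 1.105% and 2.095%, a difference of similar size (exact permutation adjusted p = 0.0595). With 30 principal components the Sst-like call was lost (exact permutation adjusted p = 0.0833). Both calls were also lost without Het male 1 or any 1 of the Het females, and the D2-like call without Het male 2, each at an exact permutation adjusted p of 0.0595. In the sums over all retained nuclei the log2 fold change of Sst was -0.23 (adjusted p = 0.960, edgeR), while its level within Sst-like nuclei was as given above.

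The genotype difference was further compared between males and females. No gene was called for an interaction of sex with genotype in all, excitatory, inhibitory or non-neuronal nuclei by edgeR (0 in each, with 668, 939, 427 and 262 at an unadjusted p below 0.05). Among the members Sst had the smallest unadjusted p, and every other member was above 0.13. Over all nuclei Sst was 1.18, 2.14 and 3.23 CPM in the WT males and 0.719, 0.815 and 1.498 CPM in the Het males. In females it was 0.785, 1.05 and 2.30 CPM in WT and 1.71, 2.01 and 2.70 CPM in Het mice. The ranges overlapped within both sexes, and the difference of the genotype effect (males minus females) was -1.44 on the log2 scale, with an adjusted p of 1.00 in edgeR's quasi-likelihood test.

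The machinery around the peptides was examined as 3 further lists. Of 18 receptor genes 14 were tested in all nuclei, 0 were called, and their median log2 fold change was -0.004, equal to the background of -0.003 within rounding. The 2 with the smallest unadjusted p were Npy5r, a receptor of neuropeptide Y (-0.32, adjusted p = 0.881), and Vipr1, a receptor of VIP and PACAP (0.16, adjusted p = 0.894). Of 13 genes of peptide processing and dense-core vesicles all were tested, 0 were called, and the median was 0.10 in all, 0.08 in excitatory and 0.07 in inhibitory nuclei, beside -0.007 and -0.005 over all genes of the last 2 sums. In non-neuronal nuclei 9 of them were tested, with a median in the other direction, -0.238 beside -0.008 over all genes. Chgb, the granin chromogranin B, was 65.6 ± 9.10 CPM in WT and 79.5 ± 8.16 CPM in Het mice (log2 fold change 0.25 ± 0.08 SE, unadjusted p = 0.00599, adjusted p = 0.508, edgeR), and Scg3, a secretogranin, had 0.14 (adjusted p = 0.839). In inhibitory nuclei the convertase gene Pcsk2 had 0.32 (adjusted p = 0.170), the secretogranin Scg2 0.44 (adjusted p = 0.581) and the kappa receptor Oprk1, on which dynorphins act, 0.77 (adjusted p = 0.375). Of 10 other peptide genes 6 were tested and 0 were called, with a median of 0.14 in all and 0.25 in inhibitory nuclei. Penk, the enkephalin precursor of striatal D2 neurons, had 0.53 (adjusted p = 0.822), and Tac1, the substance P precursor of D1 neurons, 0.28 (adjusted p = 0.856). The share of striatal nuclei, given above, was higher in the Het mice, and its part in the values of Penk and Tac1 was not tested. Penk, Tac1, Crhbp, Tacr1 and Oprk1 were also among the markers that named classes.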

How the data were processed

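Nuclei from 12 cortices were fixed, barcoded and sequenced, and the authors deposited gene by barcode matrices of estimated counts (ScaleRna, genome build mm10; Seurat 4.3.0 and DESeq2 1.38.3 are named in the submitters' processing notes). In these expected counts 92.6% of entries were whole within 0.001, and 94.4% (Tac2) to 99.6% (Cort) for the members. How the fractional entries arose is not given in the sources used here. The row of the tdTomato reporter (0.027% of counts) was left out.

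Barcodes were kept with 800 to 6000 counts, 300 to 3000 genes, at most 1% mitochondrial counts and log genes divided by log counts at or above 0.9, as the study's methods state. The 5% of barcodes per animal most like simulated doublets (1748) were removed, leaving 1551 to 4413 nuclei and 5096113 to 14017752 counts per animal. Nuclei were clustered (scanpy 1.11.5, leidenalg 0.10.2, 50 principal components of 3000 variable genes) without the 9 members and Myt1l. Clusters were named by marker genes, none of them a member. Counts were summed per animal and class, rounded to whole numbers and tested with edgeR 4.0.16 (TMM, filterByExpr, robust quasi-likelihood fit; R 4.3.3), with Benjamini-Hochberg adjustment over all genes tested; a gene was called at an adjusted p below 0.05 and a log2 change beyond 0.2. DESeq2 1.42.0, RLE scaling, no filter on low counts, a sex term, a replicate block, each animal left out, no doublet removal, no upper limits on counts and genes, whole entries only, 30 components and thinning to 1000 counts were alternatives. The setting without upper limits also dropped the limit on log genes divided by log counts and the doublet removal, so its changes cannot be assigned to 1 limit. Barcodes added in this way took the class held by most of their 15 nearest clustered nuclei. The shares without upper limits or with 30 components, the pooled levels without each animal and the Pdyn comparisons in and outside striatal nuclei were chosen after seeing the data. CPM per animal and class needed 10 or more nuclei. Shares and sparse members were compared by two-sided exact permutation tests over 924 relabellings of animals, whose smallest p is 0.00216. Scripts were tested on simulated data.

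The text names the 9 members, list genes called in any comparison or otherwise the 2 with the smallest unadjusted p in all nuclei, the 3 genes most alike in pattern, 4 reference genes and Myt1l. Oprk1, Penk, Tac1, Pcsk2 and Scg2 were named after their values were seen. The members and lists were chosen with earlier results of these data known. The GRCm38 annotation gave positions.

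WT and Het share replicate numbers within each sex. Correlations of the deviations of same-numbered samples were between -0.307 and 0.072, so the numbers were not taken to pair samples.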

Additional observations from a re-analysis of the deposited data

Results flagged for a closer look

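Of 84 groups of 6 animals examined for a sample far from the others (by Dixon's 95% critical value, which chance passes in about 1 of 20 groups), 3 held one. Pdyn over all retained nuclei was 2.46 CPM in WT male 1, from 16 counts, and the next WT animal had 1.47 CPM. Of these counts 3 lay in striatal D1- or D2-like, 5 in other inhibitory and 3 in unnamed non-neuronal nuclei. Cck in Sncg-like nuclei was 120 CPM in WT female 3, from 9 counts, and the next WT animal had 24.0 CPM. The share of striatal D2-like nuclei was 1.74% in Het male 3, from 46 nuclei, and the next Het animal had 2.54%.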

How the results depend on the processing

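Of 329 alternative values for 16 tests of members in class sums, 302 kept direction and side of the threshold, 2 gained a call and 25 changed sign; 192 of the 329 leave out an animal. Calls over all genes in all nuclei (0) became 41 with DESeq2, 35 with no filter on low counts, 6 with no upper limits, and 0 to 8 with each animal left out. In the 3 broad classes 55 calls became 137 with DESeq2, 403 with no filter and 28 to 86 with each animal left out, and in the named types 109 became 166, 298, 233 with no upper limits and 49 to 193. Members called in broad classes went from 0 to 1 with no filter, and 0 to 1 with each animal left out: Pdyn in inhibitory nuclei (log2 fold change 1.05, adjusted p = 0.00995, and 1.098, adjusted p = 0.0345 without Het male 3, edgeR; 0.794 to 1.0985 over its alternatives, adjusted p 0.00995 to 0.245). The 2 classes with a changed share became 0 as shares of inhibitory nuclei, 0 with no upper limits, 1 with 30 components (D2-like), and 0 to 3 with each animal left out. The Sst-like call was lost without Het male 1 or Het female 1, 2 or 3, and the D2-like call without Het male 1 or 2 or Het female 1, 2 or 3 (exact permutation adjusted p = 0.0595 in both), while with each animal left out the differences stayed at -0.785 to -0.593 and 0.957 to 1.22 points; the D1-like share was called without WT female 2. Vip detection in Vip-like nuclei (60.2% at 1500 counts) was 77.6% unthinned and 48.3% at 1000 counts. Sign changes were, with no upper limits, Cck 0.199, Sst 0.0081 and Adcyap1 -0.0891 in all nuclei, Adcyap1 -0.003 in excitatory and Sst 0.0599 in inhibitory nuclei, Lamp5-like share -0.0664 and Vip-like share 0.102 percentage points; Sst in inhibitory nuclei 0.0374 with no doublet removal; Vip in Vip-like nuclei 0.002 with 30 components; and the Lamp5-like share -0.144 points of inhibitory nuclei. With each animal left out, ranges crossing 0 were Cck -0.14 to 0.12 and Adcyap1 -0.11 to 0.29 in all nuclei, Cck -0.0203 to 0.159 in excitatory, Npy -0.317 to 0.0484 and Sst -0.25 to 0.21 in inhibitory, Cck -0.12 to 0.16 in L4/5 IT-like nuclei, and shares of Sst Chodl-like (-0.0116 to 0.0502 points) and Vip-like nuclei (-0.0974 to 0.0662). With the replicate block Cck in all nuclei was 0.0101, and Pdyn in inhibitory nuclei kept 1.03 (adjusted p = 0.126); 27 genes were called in inhibitory nuclei in place of 34. The cause of these changes was not tested.

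Counts limit what can be seen: only Vip, Npy, Cck, Sst, Pdyn and Adcyap1 reached the filter in the sums with the limits on counts (without upper limits Crh, Tac2 and Cort also did, and 0 of them was called), most positive nuclei hold 1 count, and the limits on counts remove the deepest nuclei. Cck in excitatory nuclei was 0.05 in the main setting and 0.26 in the setting without upper limits, ratio limit and doublet removal. With 6 animals per genotype, a missed threshold does not show equal levels.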
